A study of Mus musculus with 8 samples.

Results

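Fibroblast growth factors (FGFs) signal through FGF receptors, and the hormone-like FGFs need a klotho protein as co-receptor. In brown adipose tissue (BAT), the pair of β-klotho (Klb) and Fgfr1 is known as the receptor for FGF21, a hormone that acts on thermogenesis and glucose use, while α-klotho (Kl) serves FGF23 mainly in the kidney. Lctl, also called γ-klotho, belongs, like the intestinal enzyme lactase, to a family of glycoside hydrolases and has been described in BAT, skin and eye. Here 10 genes of this system were followed among the 44674 genes of the table: the klotho genes Lctl, Kl and Klb, the receptors Fgfr1, Fgfr2, Fgfr3 and Fgfr4, and the ligands Fgf1, Fgf10 and Fgf21. The genes were chosen by name, and the set was built around Lctl because of its difference between the genotypes in these same mice. The values of Lctl in that comparison are therefore given as a description. Where counts of called genes include Lctl, that is no support for it.

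BAT RNA was sequenced from 4 Ox1RΔSERT mice, labelled Sert-Ox1R, and from 4 control mice. Ox1RΔSERT mice were Ox1R fl/fl and Sert-Cre tg/wt, so that the orexin receptor 1 gene was deleted in cells that express Cre from the serotonin transporter promoter, which is used to target serotonergic neurons. With a reporter gene, the study also saw activity of this Cre in parts of the cortex and thalamus, and Cre activity in BAT was not examined here. Control mice were Ox1R fl/fl littermates without Cre, so that both groups carried the floxed allele but only one carried Cre. All mice were males fed a high-fat diet from week 4 to week 18 of life, and BAT was collected after a hyperinsulinemic-euglycemic clamp, so the levels refer to tissue under insulin infusion.

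Libraries held 35852667 to 50063257 estimated counts. Mitochondrially encoded genes gave 40.0% to 46.8% of the counts in control mice. In Ox1RΔSERT mice 11243, 11601, 11613 and 11708 they gave 44.6%, 33.6%, 34.0% and 36.2%. The brown adipocyte markers summed to 5746 to 7821 CPM (counts scaled to a common library size with TMM) in control mice and 3842 to 5902 CPM in Ox1RΔSERT mice, and Ucp1, which defines brown fat, was at 2513 CPM or more in every mouse. The Ox1RΔSERT mice 11601 and 11708 stood apart from the others on the first principal component, which held 53.6% of the variance, at 59.3 and 77.0 compared to -44.3 to 7.13 in the remaining 6 mice. In these bulk samples, a lower number of cells of a type and less RNA per cell cannot be told apart. The labels name 1 animal per library.

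Lctl lies on chr9:64117147-64138118 of GRCm38, on the plus strand. Its promoter and that of Klb are shown because Lctl and Klb are the klotho genes that were well above the limit of detection in this tissue. Each run of 300 bases spans 250 bases before to 50 after the RefSeq start (GRCm38.p6, plus strand, 5′ to 3′, chr9:64116897-64117196 for Lctl and chr5:65348161-65348460 for Klb), and capitals mark matches to the motifs named in the next paragraph.
Lctl: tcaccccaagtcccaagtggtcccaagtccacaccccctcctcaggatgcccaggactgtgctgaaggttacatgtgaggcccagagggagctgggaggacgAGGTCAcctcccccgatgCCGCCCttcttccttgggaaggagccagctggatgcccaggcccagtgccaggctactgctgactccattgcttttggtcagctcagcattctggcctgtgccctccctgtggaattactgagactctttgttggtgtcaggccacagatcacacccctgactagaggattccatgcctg
Klb: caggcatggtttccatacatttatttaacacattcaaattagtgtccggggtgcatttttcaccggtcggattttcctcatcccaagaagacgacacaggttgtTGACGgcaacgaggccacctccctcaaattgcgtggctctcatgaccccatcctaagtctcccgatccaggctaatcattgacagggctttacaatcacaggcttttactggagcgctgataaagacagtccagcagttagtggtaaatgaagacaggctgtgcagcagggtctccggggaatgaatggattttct

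In all, 6 motifs were searched on both strands: a C/EBP site (TTGCNNAA), the CRE half-site (TGACG), the nuclear receptor half-site (AGGTCA), the TATA box (TATAAA), the E-box (CACGTG) and the GC box (GGGCGG). The Lctl promoter held a nuclear receptor half-site starting 148 bases before the start and a GC box on the minus strand starting 130 bases before it. Among all 32851 RefSeq promoters of this length, 16.3% held the nuclear receptor half-site and 35.7% the GC box. The Klb promoter held a CRE half-site starting 146 bases before the start, which 20.8% of all promoters held. These matches did not overlap one another, and they describe letters in a window, not binding.

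Lctl was higher in Ox1RΔSERT mice than in control mice. Lctl was at 8.34, 7.70, 7.32 and 7.92 CPM in control mice 10684, 11253, 11560 and 11563. It was at 14.2, 14.0, 20.9 and 17.4 CPM in Ox1RΔSERT mice 11243, 11601, 11613 and 11708. The groups did not overlap: the lowest Ox1RΔSERT mouse lay well above the highest control mouse. These values rested on 243 to 377 estimated counts in control mice and 652 to 929 in Ox1RΔSERT mice. The mean was 7.82 ± 0.429 CPM (SD, n = 4) in control mice and 16.6 ± 3.21 CPM (SD, n = 4) in Ox1RΔSERT mice, a log2 fold change of 1.09 in the edgeR fit. The spread between mice was 5.48% of the mean in control mice and 19.3% in Ox1RΔSERT mice.

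The mice with the highest Lctl were 11613 and 11708. Mouse 11601, which stood apart with 11708, was the lowest Ox1RΔSERT mouse in CPM, at 14.0 CPM beside 14.2 CPM in mouse 11243. Without mice 11601 and 11708, the log2 fold change of Lctl was 1.17, and over all leave-one-out fits it ranged from 0.96 to 1.16. In TPM, a level that accounts for transcript length and library total, Lctl was at 3.36 ± 0.598 TPM (SD, n = 4) in control mice and 9.15 ± 2.17 TPM (SD, n = 4) in Ox1RΔSERT mice. The lowest Ox1RΔSERT mouse in TPM was 11243, at 6.19 TPM, compared to 8.90 TPM in mouse 11601. On the log2(TPM + 0.1) scale the median of all genes was also higher in Ox1RΔSERT mice, by 0.32, and Lctl was higher by 1.4. Exons of Lctl share 254 of 2604 bases with Zwilch on the opposite strand, and the libraries were strand-specific.

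**Figure D1:**
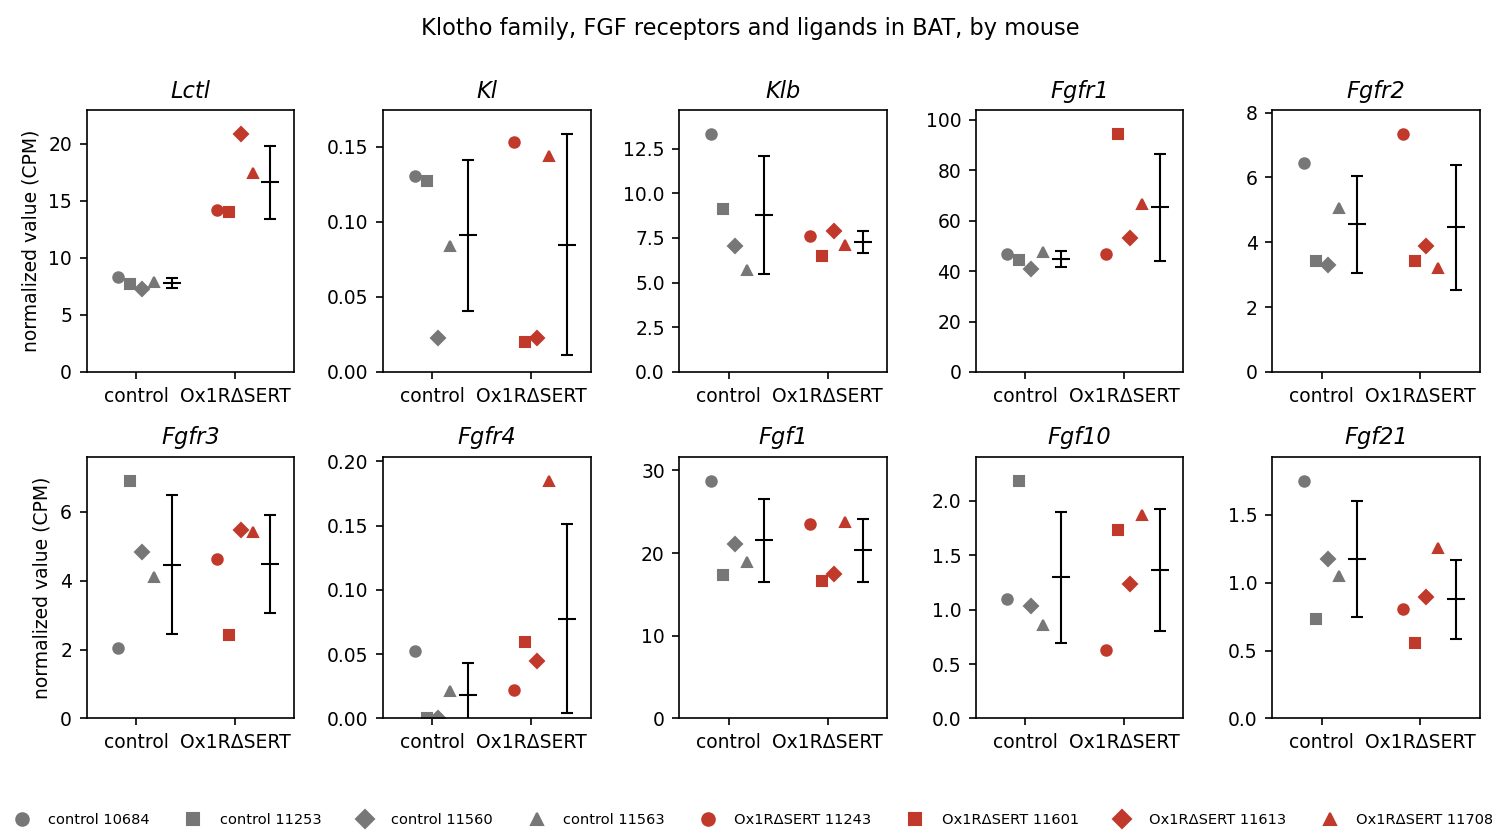
Normalized value in CPM (vertical axes, each starting at 0 with its own scale) of the 10 genes in 4 control mice (grey) and 4 Ox1RΔSERT mice (red); each symbol is 1 mouse, and bars give the mean ± SD. Lctl separates the groups, from 7.32 to 8.34 CPM in control mice and from 14.0 to 20.9 CPM in Ox1RΔSERT mice, while the groups overlap for each of the other 9 genes.

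Among the 10 genes, 8 passed the filter on low counts, as did 14489 of all 44674 genes, and Kl and Fgfr4 did not. In the edgeR test, 0.0% of all genes tested and 0 of the 8 were called at an adjusted p under 0.05. The lowest edgeR adjusted p of any gene tested was 0.316. It was shared by 1249 genes and does not rank them. At an unadjusted p under 0.05, edgeR marked 15.2% of all genes and, of the 7 tested genes other than Lctl, Fgfr1 alone. DESeq2 called 1.75% of the 15119 genes it gave an adjusted p, 1.54% as higher in Ox1RΔSERT mice, and called none of the genes other than Lctl. Groups that did not overlap were seen in 5.50% of all genes tested, 2.69% with Ox1RΔSERT mice higher and 2.81% with them lower, and among the 8 in Lctl only. Of the 8, 4 were higher and 4 lower in Ox1RΔSERT mice, with a median log2 fold change of -0.01, beside 0.00 over all genes tested.

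**Figure D2:**
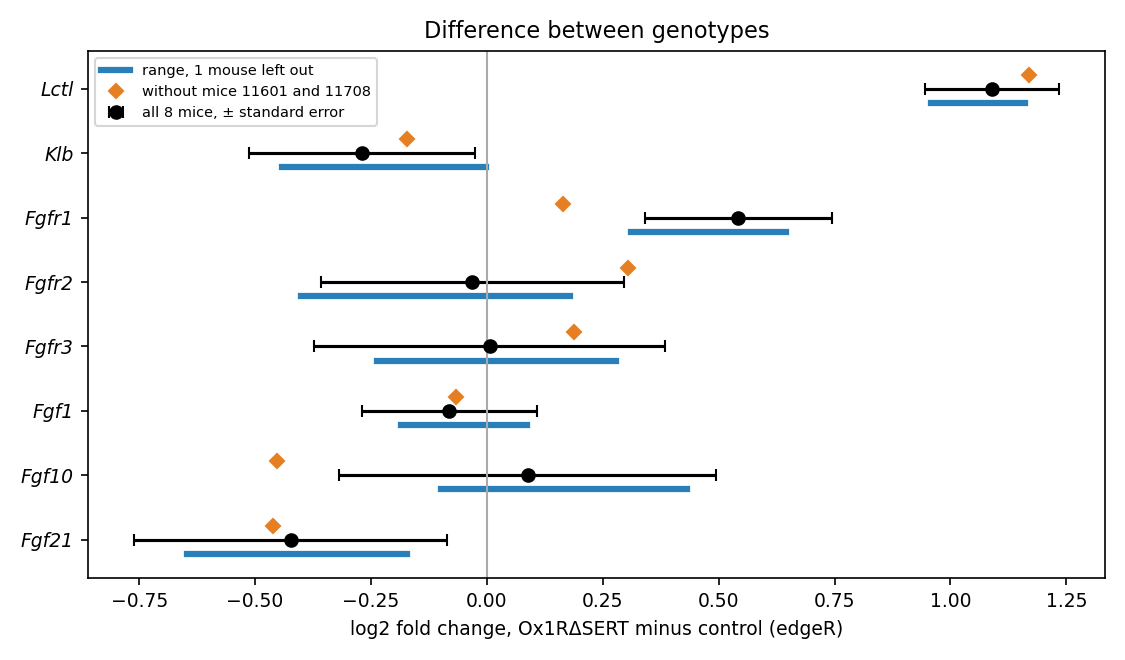
Log2 fold change of the 8 tested genes between Ox1RΔSERT and control mice (horizontal axis, positive where Ox1RΔSERT mice were higher). Black points and bars give the edgeR estimate ± standard error over 8 mice, blue bars the range when 1 mouse is left out, and orange diamonds the value without mice 11601 and 11708, which lowers Fgfr1 from 0.54 to 0.16 and leaves Lctl at 1.17. The bar of Lctl, which was chosen by this contrast, is no test of it.

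Of the other klotho genes only Klb was tested, and its difference did not pass. Klb was at 13.3, 9.10, 7.05 and 5.72 CPM in control mice 10684, 11253, 11560 and 11563. Klb was at 7.62, 6.51, 7.90 and 7.12 CPM in Ox1RΔSERT mice 11243, 11601, 11613 and 11708. All Ox1RΔSERT mice lay within the range of the control mice, in which mouse 10684 was highest. Klb averaged 8.79 ± 3.32 CPM (SD, n = 4) in control mice and 7.29 ± 0.612 CPM (SD, n = 4) in Ox1RΔSERT mice, a log2 fold change of -0.27 with a standard error of 0.24 (edgeR, adjusted p = 0.597). Without control mouse 10684 this value was -0.001. Kl had 1 to 7 counts in every mouse, with 5, 4, 1 and 4 counts in control mice and 7, 1, 1 and 7 counts in Ox1RΔSERT mice, and did not pass the filter. At this depth a difference in Kl was not detectable.

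The make-up of the klotho family followed Lctl. Lctl made up 59.1% to 71.8% of the summed TPM of Lctl, Klb and Kl in control mice and 79.5% to 83.8% in Ox1RΔSERT mice. The level of Lctl per level of Klb was 1.94 ± 0.477 (SD, n = 4) in control mice and 4.65 ± 0.567 (SD, n = 4) in Ox1RΔSERT mice. Both ratios contain Lctl and are descriptions for the same reason as above.

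Fgfr1, the receptor that pairs with Klb, was the most abundant of the 10 genes. It was at 46.7, 44.3, 40.8 and 47.4 CPM in control mice 10684, 11253, 11560 and 11563. It was at 46.8, 94.3, 53.2 and 66.7 CPM in Ox1RΔSERT mice 11243, 11601, 11613 and 11708. Mice 11601 and 11708 were highest, a pattern that 20.1% of all genes tested shared. Mouse 11613 also lay above all control mice, and mouse 11243 lay within the control range. The log2 fold change was 0.54 with a standard error of 0.20, which did not pass the edgeR test (adjusted p = 0.316, a value shared by 1249 genes; DESeq2, adjusted p = 0.163). Without mice 11601 and 11708 it was 0.16. DESeq2 called Fgfr1 only in the fit without mouse 11243 (adjusted p = 0.0208).

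Fgfr1 was highest in the mice with the highest levels of stromal and macrophage markers. Of the markers of stromal cells and preadipocytes, 8 of 8 passed the filter, and their sum ran from 393 to 1040 CPM in control mice and from 695 to 5504 CPM in Ox1RΔSERT mice. The sum reached 5504 CPM in mouse 11601 and 2561 CPM in mouse 11708. The macrophage and leukocyte markers, of which 6 of 7 passed the filter, summed to 30.5 to 70.2 CPM in control mice, 253 CPM in mouse 11601 and 235 CPM in mouse 11708. The brown adipocyte markers were lowest in the same mice, at 3968 CPM in mouse 11601 and 3842 CPM in mouse 11708. Mouse 11243 had a stromal sum of 695 CPM and a macrophage sum of 49.8 CPM, both within the control range. Its Fgfr1 was at 46.8 CPM and its Lctl at 14.2 CPM. Mouse 11613 had sums of 1003 and 60.1 CPM, respectively, also within the control range. Its Fgfr1 was at 53.2 CPM, above all control mice, and its Lctl at 20.9 CPM. Control mouse 11253 alone set the upper end of both control ranges, with sums of 1040 and 70.2 CPM, and had Fgfr1 at 44.3 CPM. In control mice 10684, 11560 and 11563 the stromal sums were 393, 552 and 566 CPM. Their macrophage sums were 44.7, 30.5 and 44.0 CPM. Every Ox1RΔSERT mouse lay above those control mice on both sums. The part of these cells in the values of Fgfr1 and Lctl was not tested. Of the 5 epithelial markers, Epcam, Krt5 and Krt14 were at 3 counts or fewer in every mouse, and the sum of all 5 was 1.81 CPM in mouse 11708 compared to 0 to 0.178 CPM in the other mice.

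**Figure D3:**
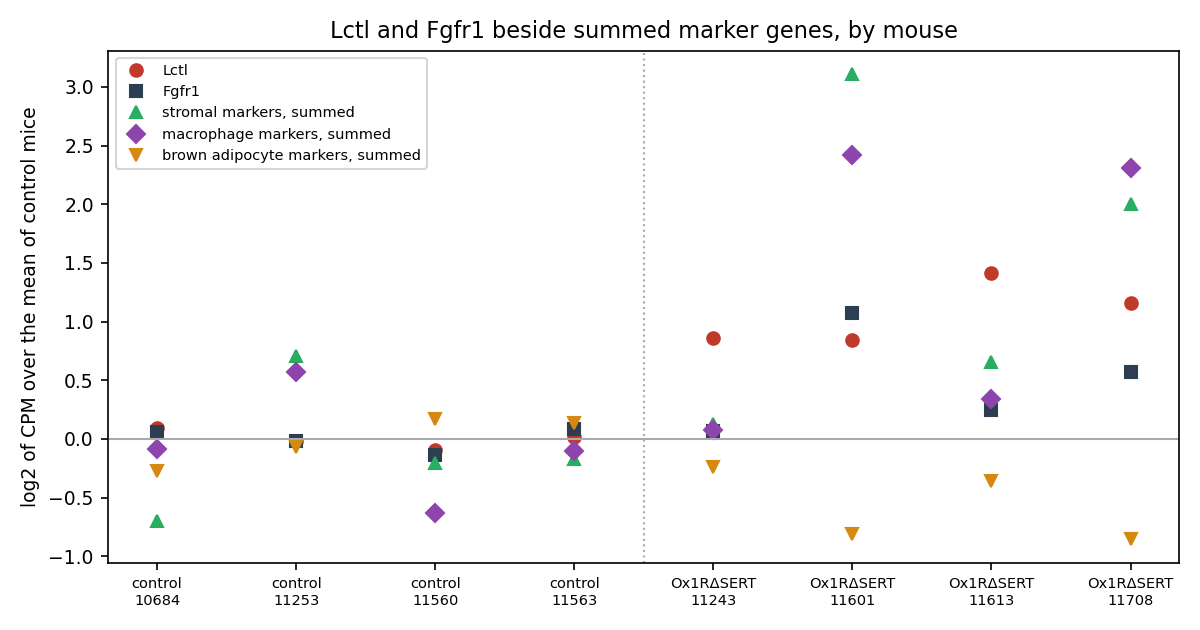
Log2 of CPM over the mean of control mice (vertical axis) for Lctl, Fgfr1 and the summed markers of stromal cells, macrophages and brown adipocytes in each mouse (horizontal axis). Fgfr1 is highest in mice 11601 and 11708, where the stromal sums reach 5504 and 2561 CPM. Both Fgfr1 and Lctl are above the control mean in all 4 Ox1RΔSERT mice.

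The remaining receptors were not called in the edgeR test. Fgfr2, a receptor of epithelial and mesenchymal cells, was at 4.56 ± 1.49 CPM (SD, n = 4) in control mice and 4.46 ± 1.94 CPM (SD, n = 4) in Ox1RΔSERT mice (log2 fold change -0.03, standard error 0.33, edgeR adjusted p = 0.971). Its values ran from 3.30 to 6.43 CPM in control mice and from 3.21 to 7.34 CPM in Ox1RΔSERT mice. Fgfr3, known for its role in bone growth, was at 4.47 ± 2.01 CPM (SD, n = 4) and 4.49 ± 1.43 CPM (SD, n = 4), respectively (log2 fold change 0.01, standard error 0.38, edgeR adjusted p = 0.996). The groups overlapped for both genes, and these standard errors leave room for differences of the size estimated for Fgfr1.

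Fgfr4, the main FGF receptor of hepatocytes, was at the limit of detection. It had 2, 0, 0 and 1 counts in control mice 10684, 11253, 11560 and 11563. It had 1, 3, 2 and 9 counts in Ox1RΔSERT mice 11243, 11601, 11613 and 11708. Mouse 11708, the only mouse above 3 counts, also had the highest sum of the liver markers, 812 CPM compared to 2.61 to 55.8 CPM in the other mice. It had the highest sums of skeletal muscle, mural, lymphocyte and epithelial markers as well, with 1993 CPM for skeletal muscle and 36.1 CPM for mural markers. In control mouse 11253 the skeletal muscle sum was 1378 CPM. The link between any of these markers and Fgfr4 was not tested.

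Fgfr1 made up 78.7% to 82.3% of the summed TPM of the 4 receptors in control mice and 77.3% to 91.8% in Ox1RΔSERT mice, with the highest share in mouse 11601. The level of Klb per level of Fgfr1, the components of the FGF21 receptor, was 0.188 ± 0.0648 (SD, n = 4) in control mice and 0.117 ± 0.0432 (SD, n = 4) in Ox1RΔSERT mice. The ranges of this ratio overlapped, from 0.119 to 0.273 and from 0.0643 to 0.154, respectively.

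None of the 3 ligands was called in the edgeR test. Fgf1, which is induced by feeding in fat and binds all FGF receptors, was the ligand with the highest level. It was at 21.5 ± 5.06 CPM (SD, n = 4) in control mice and 20.3 ± 3.82 CPM (SD, n = 4) in Ox1RΔSERT mice (log2 fold change -0.08, standard error 0.19, edgeR adjusted p = 0.854). Its values ran from 17.4 to 28.8 CPM in control mice and from 16.6 to 23.8 CPM in Ox1RΔSERT mice. Fgf21, which acts through Klb and Fgfr1, was at 1.75, 0.729, 1.17 and 1.05 CPM in control mice 10684, 11253, 11560 and 11563. Fgf21 was at 0.808, 0.552, 0.898 and 1.25 CPM in Ox1RΔSERT mice 11243, 11601, 11613 and 11708. The groups overlapped, and the log2 fold change of -0.42 with a standard error of 0.34 did not pass the test (edgeR, adjusted p = 0.546). It was -0.17 without control mouse 10684, -0.25 without mouse 11601, -0.65 without mouse 11708 and -0.052 on the log2(TPM + 1) scale. The median of all genes on that scale was 0.23, so -0.052 lay below it. The values of Fgf21 rested on 23 to 67 counts per mouse. Fgf10, a mesenchymal ligand known from the formation of fat and lung, was at 1.30 ± 0.602 CPM (SD, n = 4) and 1.37 ± 0.562 CPM (SD, n = 4), respectively (log2 fold change 0.09, standard error 0.41, edgeR adjusted p = 0.932).

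Control mouse 10684 was the highest control mouse for 5 of the 8 tested genes, namely Lctl, Klb, Fgfr2, Fgf1 and Fgf21, and the lowest for Fgfr3. Over all genes tested, mouse 10684 was the highest control mouse for 33.6%. Fgf1 and Fgf21 were the pair of tested members with the most alike profiles over the 8 mice, at a root mean square distance of 0.57 between standardised values, whereas Lctl and Fgfr1 were at 0.87.

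To compare genes with each other, TPM levels were averaged over all 8 mice. The order was Fgfr1 at 14.5 TPM, Lctl at 6.25 TPM, Fgf1 at 5.77 TPM, Klb at 1.90 TPM, Fgfr3 at 1.47 TPM, Fgfr2 at 1.37 TPM, Fgf21 at 1.13 TPM, Fgf10 at 0.334 TPM, and Fgfr4 and Kl at 0.0156 and 0.0149 TPM. The median gene tested was at 3.88 TPM. Of the 9 pairs of neighbours in this order, 4 differed in an exact two-sided sign-flip permutation test within mice on the log2(TPM + 0.1) scale (adjusted p = 0.0176 for each, raw p = 0.00781, the smallest that 8 mice allow). These were Fgfr1 over Lctl, Fgf1 over Klb, Fgf21 over Fgf10 and Fgf10 over Fgfr4, with the upper gene higher in 8 of 8 mice. The order was taken from these same values. The pair of Fgfr1 and Lctl is a description, because Lctl was chosen by its difference in these mice.

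The other neighbours did not differ beyond their spread. Klb exceeded Fgfr3 in 7 of 8 mice (adjusted exact p = 0.141) and Fgfr2 exceeded Fgf21 in 6 of 8 mice (adjusted exact p = 0.246). Lctl was above Fgf1 in 4 of 8 mice, and these were the Ox1RΔSERT mice. In control mice Lctl was at 2.97 to 4.23 TPM and Fgf1 at 3.93 to 6.92 TPM, and in Ox1RΔSERT mice Lctl was at 6.19 to 11.0 TPM and Fgf1 at 4.99 to 8.99 TPM. Because Lctl was chosen by its difference between these groups, this change of order is a description.

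**Figure D4:**
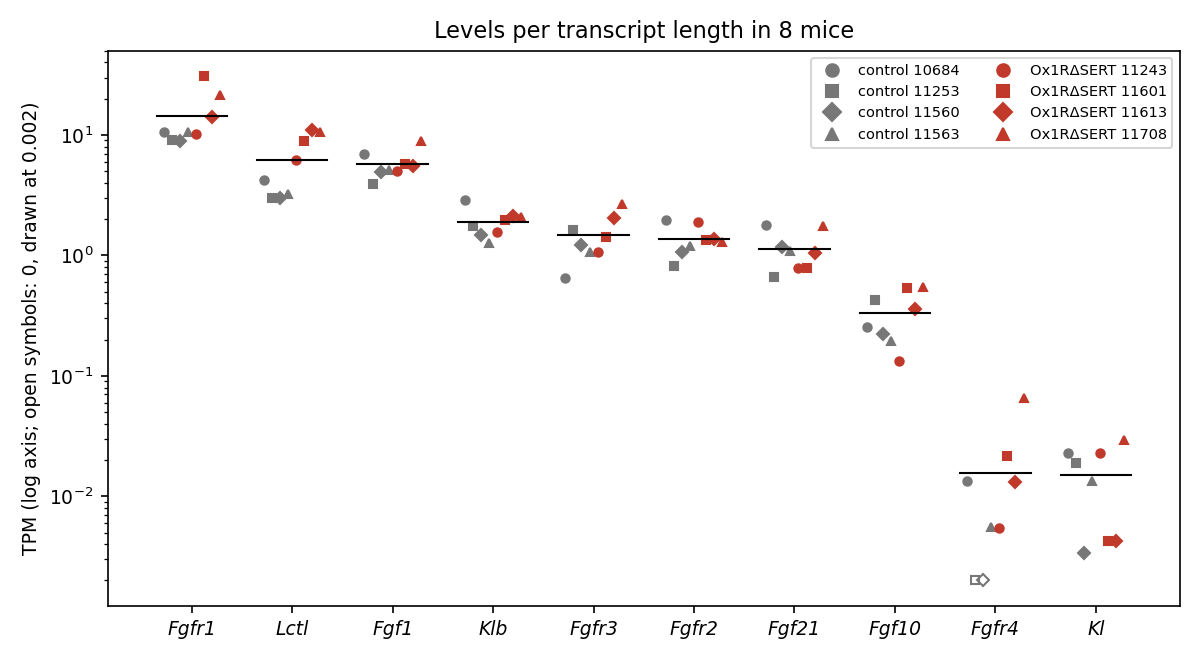
TPM of the 10 genes in 8 mice (vertical log axis; grey control mice, red Ox1RΔSERT mice, black lines the mean of 8 mice; open symbols mark 0). Genes are ordered by their mean, from Fgfr1 at 14.5 TPM to Kl at 0.0149 TPM. Lctl, chosen by its difference between the groups, lies above Fgf1 in the Ox1RΔSERT mice only.

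Because counts and TPM were deposited together, their ratio gives the mean length of the transcripts assigned to a gene, which moves when the mix of isoforms moves. Lengths were set relative to the median gene of each library. None of the 8 tested genes had a difference in this length past the threshold (exact two-sided permutation test over 70 assignments, lowest p = 0.257, for Fgfr3), beside 1.70% of 12238 genes with an exact p under 0.05. Lctl had a relative length of 0.763 ± 0.073 (SD, n = 4) in control mice and 0.752 ± 0.026 (SD, n = 4) in Ox1RΔSERT mice (exact permutation p = 0.857), and the groups overlapped. Fgfr3 varied most, by 1.69-fold over the mice, from 0.805 in mouse 11601 and 0.932 in mouse 11708 to 1.36 in mouse 11243. Klb varied least, by 1.02-fold. Exons of Fgfr3 share 998 of 7158 bases with G630022F23Rik on the opposite strand, those of Fgfr1 share 164 bases with Gm16159 and those of Fgf10 share 123 bases with Gm16263, also on the opposite strand.

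**Figure D5:**
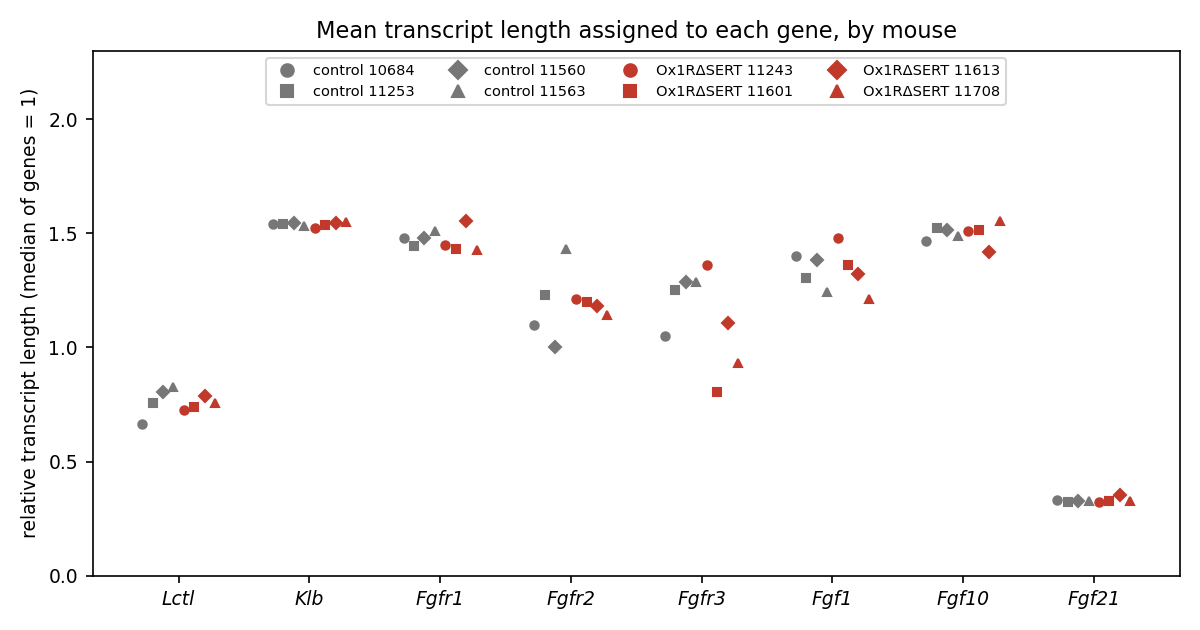
Relative transcript length of the 8 tested genes in each mouse (vertical axis, 1 is the median gene; grey control mice, red Ox1RΔSERT mice). Fgfr3 spreads from 0.805 to 1.36, whereas Klb stays within a 1.02-fold range and Lctl overlaps between the groups.

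The profile of Lctl over the 8 mice was compared with that of each of 14488 other tested genes as a description. The nearest genes were Ehmt2, Thop1, Btc, Wdr91 and Fam102a, at distances of 0.273 to 0.345 compared to a median of 1.31. For Klb they were Dgat2, Tinf2, B430219N15Rik, Ttc38 and Ppp3cc (0.137 to 0.250), and for Fgfr1 they were Maged2, Numbl, Efemp2, Phldb1 and Atp8b1 (0.175 to 0.182).

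The other genes of the pathway were examined in 6 lists, in which edgeR called 0 genes at an adjusted p under 0.05 and DESeq2 called 1. The median log2 fold change of all genes tested, for comparison, was 0.00. Of the 19 other FGF ligands, 8 were tested, 6 higher and 2 lower in Ox1RΔSERT mice, with 2 higher and 1 lower at an unadjusted p under 0.05 (10.2% and 4.96% of all genes tested), and Fgf3, Fgf4, Fgf8, Fgf12, Fgf15, Fgf20 and Fgf22 had 3 counts or fewer in every mouse. Groups did not overlap for 2 ligands, 1 higher and 1 lower, compared to 2.69% and 2.81% of all genes tested. Fgf23, a bone-derived hormone that signals through Kl, had 0, 0, 3 and 0 counts in control mice and 15, 17, 11 and 17 counts in Ox1RΔSERT mice. With control mice set to 3 counts in the library with the highest such floor, the mean of Ox1RΔSERT mice was at least 3.31-fold higher. Levels of Fgf23 were at most 0.350 CPM, and edgeR did not call it (adjusted p = 0.316). Fgf23 passed the filter on low counts only through the Ox1RΔSERT mice. Its fold value, its lack of overlap and its part in the counts of higher ligands are therefore no support for a difference. Fgf9, a ligand of epithelial and mesenchymal tissues, was at 2.59, 2.95, 5.62 and 3.30 CPM in control mice 10684, 11253, 11560 and 11563. Fgf9 was at 2.58, 1.12, 1.08 and 1.36 CPM in Ox1RΔSERT mice 11243, 11601, 11613 and 11708. The closest mice of both groups were nearly equal, and the log2 fold change of -1.24 with a standard error of 0.36 did not pass the test (edgeR, adjusted p = 0.316). In DESeq2, Fgf9 lay just above the threshold (adjusted p = 0.0504). Fgf11, an intracellular member of the family, had the highest level of these ligands, at 1.46 TPM (log2 fold change -0.07, standard error 0.18).

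Downstream of the receptors, 22 of 24 genes of receptor-proximal signalling were tested, and 11 were higher and 11 lower, with a median log2 fold change of -0.01. At an unadjusted p under 0.05, 3 were higher and 1 was lower, compared to 10.2% and 4.96% of all genes tested. The most abundant were Ptpn11, a phosphatase that activates Ras signalling (log2 fold change -0.26, standard error 0.11, edgeR adjusted p = 0.328), and the kinase gene Map2k2 (log2 fold change -0.15, standard error 0.10, edgeR adjusted p = 0.465). Of the feedback and early target genes, 16 were tested, with 11 higher and 5 lower, a median of 0.24, and 2 higher and 1 lower at an unadjusted p under 0.05, beside the same 10.2% and 4.96%. Dusp6 and Dusp4, phosphatases that restrain ERK, had log2 fold changes of -0.15 (standard error 0.26) and -0.61 (standard error 0.26), and neither passed the edgeR test (adjusted p = 0.803 and 0.325). Fos, an early response gene, was the only list gene called by DESeq2 (adjusted p = 0.0372), with 36.9 CPM in mouse 11601 and 26.0 CPM in mouse 11708 compared to 4.03 to 8.28 CPM in the other mice.

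Of the heparan sulfate and FGF-binding genes, 22 of 24 were tested, and 20 were higher and 2 lower, with a median log2 fold change of 0.25. At an unadjusted p under 0.05, 8 were higher, compared to 10.2% of all genes tested, and 1 was lower, compared to 4.96%. The perlecan gene Hspg2 was at 141 ± 18.1 CPM (SD, n = 4) in control mice and 184 ± 22.8 CPM (SD, n = 4) in Ox1RΔSERT mice (edgeR, adjusted p = 0.316), while the syndecan gene Sdc4 was at 222 ± 53.8 and 223 ± 10.3 CPM (SD, n = 4; edgeR, adjusted p = 0.996). These genes stand beside the stromal marker sums given above, and the part of stromal cells in their levels was not tested.

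Among the FGF21-responsive genes and the FGF21-cleaving enzyme gene, 7 of 7 were tested, with 2 higher and 5 lower, a median log2 fold change of -0.26, and 2 lower at an unadjusted p under 0.05, compared to 4.96% of all genes tested. Ucp1, the uncoupling protein of brown fat, was at 3731, 3806, 4894 and 4631 CPM in control mice 10684, 11253, 11560 and 11563. Ucp1 was at 3817, 2513, 2903 and 2513 CPM in Ox1RΔSERT mice 11243, 11601, 11613 and 11708. The groups overlapped through mouse 11243, and the log2 fold change of -0.54 with a standard error of 0.18 did not pass the test (edgeR, adjusted p = 0.316). Cidea, a lipid droplet protein gene of brown fat, had a log2 fold change of -0.26 (standard error 0.21, edgeR adjusted p = 0.543). Among the glycoside hydrolase relatives of Lctl, Lct, the lactase gene, had 3 counts or fewer in every mouse.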

How the data were processed

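The authors sequenced poly-A selected, strand-specific libraries of BAT from 8 mice and estimated transcript levels with Salmon 0.14.1 on GRCm38. The deposited tables hold, per gene and mouse, estimated counts, which need not be whole, and TPM values that the authors' pipeline scaled to transcript length and library total. The authors tested the counts with DESeq2 1.26.0. Here the estimated counts were rounded, genes with low counts were removed with filterByExpr, and groups were compared with edgeR 4.0.16 (TMM scaling, quasi-likelihood test) with Benjamini-Hochberg adjustment over all genes tested, in R 4.3.3. DESeq2 1.42.0 and limma 3.58.1 served as alternatives, as did other scalings and filters and the removal of mice. CPM used TMM-scaled library sizes. A pseudocount of 0.1 was added to TPM before taking log2. The floor of detection was 3 counts, 0.0592 to 0.0951 CPM depending on the library, and covers counting error only.

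Named genes were the 10 members, and from each pathway list up to 3 genes with the lowest unadjusted p among those whose groups did not overlap and the 2 with the highest mean TPM. For Lctl, Klb and Fgfr1, the 5 genes with the nearest profile of standardised log2(CPM + 0.1) were named. Fos was named after its values were seen. Some results for the glycoside hydrolase relatives are not reported here. The members and lists were chosen with earlier results of these data known. Relative transcript length used genes with at least 20 counts in every mouse, and its exact p-values are given unadjusted beside the share over all genes, in place of a planned adjustment over the members. Gene coordinates came from GENCODE M21 and promoters from RefSeq, which matched 8 of 10 genes. The statistics were tested on simulated data.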

Additional observations from a re-analysis of the deposited data

Results flagged for a closer look

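Among the 20 groups of 4 mice tested, 1 value stood apart by Dixon's criterion, which chance exceeds in about 1 of 20 groups. Fgfr2 was at 7.34 CPM in Ox1RΔSERT mouse 11243, compared to 3.21 to 3.88 CPM in the other Ox1RΔSERT mice, with a gap of 0.836 of the range. Control mouse 10684 had a similar level of Fgfr2, at 6.43 CPM. Exons of Fgfr2 share 314 of 10328 bases with Ctbp2 on the same strand.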

How the results depend on the processing

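Lctl kept its direction in 20 of 20 alternatives, from 0.96 without Ox1RΔSERT mouse 11613 to 1.4 with limma on log2(TPM + 0.1), where the median of all genes also moved to 0.32, and to 0.23 on log2(TPM + 1). The alternatives reuse the mice and the contrast by which Lctl was chosen, so its kept direction is no support for it. On log2(TPM + 1) and log2(TPM + 0.1) the differences turned to 0.076 and 0.13 for Klb, 0.14 and 0.25 for Fgfr2 and 0.22 and 0.25 for Fgf1, all below that median shift. Without 1 mouse in turn, the log2 fold change ran from -0.40 to 0.18 for Fgfr2, from -0.24 to 0.28 for Fgfr3, from -0.19 to 0.087 for Fgf1 and from -0.10 to 0.43 for Fgf10. Without mice 11601 and 11708, chosen after seeing the data, it was 0.30 for Fgfr2 and -0.45 for Fgf10. Fgfr3 was at -0.0051 with upper-quartile scaling, -0.0083 without a filter, 0.26 with a transcript length offset, and 0.37 and 0.59 on log2(TPM + 1) and log2(TPM + 0.1), the last 2 above the median shift.

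The edgeR quasi-likelihood test called 0 genes in all its alternatives, and 2201 had an unadjusted p under 0.05. DESeq2 called 265 genes, of which 1 was a member (Lctl) and 1 a pathway gene (Fos). The likelihood-ratio test of edgeR, added later, called 24 genes, of which 1 was a member (Lctl) and 1 a pathway gene (Fgf23). DESeq2 with 1 mouse left out, also added later, called 373, 247, 17 and 49 genes without control mice 10684, 11253, 11560 and 11563 and 1516, 17, 936 and 19 without Ox1RΔSERT mice 11243, 11601, 11613 and 11708. Of the pathway genes, these DESeq2 fits called 2, 5, 1 and 0 without control mice and 16, 0, 9 and 0 without Ox1RΔSERT mice, in the same order. Over quasi-likelihood and DESeq2 fits without 1 mouse, the calls ran from 0 to 1516 genes, from 0 to 2 members and from 0 to 16 pathway genes. These calls include Lctl, which was chosen by this contrast in these mice, so that its calls are no support for it. The call of Fgf23 by the likelihood-ratio test is no support either, because Fgf23 passed the filter only through the Ox1RΔSERT mice. Of the other members, Fgfr1 was called, without mouse 11243. The cause was not tested. The 4 neighbours that differed and the 0 members that differed in relative length were the same in number under every alternative run. Counts limit what can be said of Kl, Fgfr4 and Fgf23. No paired analysis was possible because the labels give no number that links mice of both groups.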
